A study of Mus musculus with 8 samples.

Results

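Brown adipose tissue (BAT) of Ucp1Δ/Δ mice held more transcript of the activating IgG receptors Fcgr3 and Fcgr4 and of their shared signalling chain Fcer1g than BAT of WT mice, while a difference in the neonatal Fc receptor Fcgrt was not detectable. The genes examined were the 4 mouse Fc gamma receptors that bind IgG at the cell surface (Fcgr1, Fcgr2b, Fcgr3 and Fcgr4), the gene of the Fc receptor gamma chain (Fcer1g) and the gene of the neonatal Fc receptor FcRn (Fcgrt). They were taken by name, with earlier results of these data known, and all 6 were found among the 31053 Ensembl genes of the deposited count table. Bulk RNA-seq was performed on 4 WT and 4 Ucp1Δ/Δ male mice of strain C57BL6/J, which carry the label ATGLKO and are 10 weeks old by the labels (the study's own text gives a younger age). Ucp1Δ/Δ mice carry floxed alleles of Pnpla2, which encodes the triglyceride lipase ATGL, and a Cre recombinase under the Ucp1 promoter, so the deletion is directed to thermogenic adipocytes and not to the immune cells that make most Fc receptors. Whether the WT controls carried the floxed alleles or the Cre is not given in the sources used here. The study's methods state a fast before tissue harvest in the passage on the obese models, and do not repeat it for the Ucp1Δ/Δ mice. No further treatment is given for these mice, and each library came from 1 mouse.

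Fc receptors read the constant part of antibodies. Fcgr1 encodes CD64, the high-affinity receptor for monomeric IgG, whereas Fcgr3 and Fcgr4 encode receptors of lower affinity that bind immune complexes. These activating receptors have no signalling motif of their own and depend on the Fc receptor gamma chain, whose tyrosine-based activation motif (ITAM) is phosphorylated by Src-family kinases and recruits Syk. Fcgr2b encodes the inhibitory receptor, which carries an inhibitory motif (ITIM) and recruits phosphatases that oppose the activating receptors. FcRn, the product of Fcgrt, resembles an MHC class I molecule, pairs with beta-2 microglobulin and returns IgG and albumin from endosomes to the circulation. Macrophages express the whole surface family and endothelial cells express FcRn, and both cell types reside in BAT.

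The libraries held 2017697 to 3115956 counts in the WT group and 2240612 to 2941799 in the Ucp1Δ/Δ group, of which mt-Nd4 alone took 21.6% to 26.6%. Levels are given as CPM, the count scaled by the TMM-adjusted library size, and 3 counts, taken as a detection floor for counting error only, correspond to 0.933 to 1.53 CPM. Pnpla2 fell from 2913 ± 191.4 CPM to 473.7 ± 59.2 CPM (SD, n = 4 each), as the gene targeted by the design (log2FC -2.62, SE 0.17, adjusted p = 1.97e-07, edgeR quasi-likelihood test). A label field names the stromal vascular fraction, yet 9 brown adipocyte markers summed to 13261 to 22002 CPM in WT and 9949 to 14908 CPM in Ucp1Δ/Δ mice, so the libraries carry adipocyte RNA. Skeletal muscle markers were uneven within both genotypes, from 19.0 to 1365 CPM in WT and from 57.2 to 1896 CPM in Ucp1Δ/Δ mice, highest in replicates 1 and 4 of WT and 2 and 4 of Ucp1Δ/Δ.

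The genes Fcgr2b, Fcgr4, Fcgr3 and Fcer1g lie within 275749 bases of chromosome 1 of mm10. In this build Fcgr2b spans chr1:170958617-170976547, Fcgr4 chr1:171018920-171029761, Fcgr3 chr1:171051174-171064935 and Fcer1g chr1:171229572-171234365. Fcgr1 lies apart at chr3:96282909-96293969 and Fcgrt at chr7:45092990-45103851, and all 6 are annotated as protein coding. Fcgr2b and Fcgr3 share stretches of identical exon sequence. Of the 75-base windows along Fcgr3 transcripts, 94 of 1733 (5.42%) also occur in Fcgr2b, and 313 of 5768 windows (5.43%) of Fcgr2b occur in another gene. Counts of this pair could therefore have been split or lost where reads match both. Exons of Fcgr2b also overlap those of Gm38204 on the opposite strand, and whether the counting used strand is not given in the sources used here.

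Promoter windows of 250 bases before to 50 bases from the annotated start were available for all 6 genes in RefSeq (GRCm38.p6) and were searched on both strands for GAGGAA, the core bound by the myeloid factor PU.1, for TTCNNNGAA, the spacing bound by STAT factors, and for TCACGTG, the E-box of the MiT/TFE factors of lysosomal genes. The PU.1 core was present in the windows of Fcgr1, Fcgr3 and Fcgr4, in each case on the strand opposite to the gene. Along the gene it therefore reads TTCCTC, whose first base lay at -55, -6 and -22 from the start. The same core occurred in the windows of 31.3% of the 27025 genes with a window. The STAT spacing was present in Fcgr1 only, at -109, against 9.55% of all genes, and the E-box was present in 0 of the 6 genes, against 4.29%. The searched motifs did not overlap each other in these windows. The windows of the 3 activating receptors are shown for the shared motif, that of Fcer1g as the other chromosome 1 gene that rose, and that of Fcgrt as the gene without a difference, each 5′ to 3′ along the gene with the matched letters in capitals. A second annotated start of Fcgr3, a few bases further along the gene, places the same TTCCTC at -15.
Fcgr1, chr3:96293920-96294219, minus strand: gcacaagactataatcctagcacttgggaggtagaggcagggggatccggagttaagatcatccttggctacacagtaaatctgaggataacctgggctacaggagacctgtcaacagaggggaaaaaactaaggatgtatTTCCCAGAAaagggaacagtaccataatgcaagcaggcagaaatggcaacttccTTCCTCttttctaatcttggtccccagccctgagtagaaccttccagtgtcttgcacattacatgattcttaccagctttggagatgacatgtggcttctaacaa
Fcgr3, chr1:171059354-171059653, minus strand: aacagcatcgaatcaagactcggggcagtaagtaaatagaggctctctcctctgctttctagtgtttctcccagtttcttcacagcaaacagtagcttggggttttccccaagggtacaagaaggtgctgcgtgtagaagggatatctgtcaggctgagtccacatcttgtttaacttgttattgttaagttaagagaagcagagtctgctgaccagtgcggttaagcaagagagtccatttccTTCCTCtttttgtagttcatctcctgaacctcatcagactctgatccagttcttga
Fcgr4, chr1:171018676-171018975, plus strand: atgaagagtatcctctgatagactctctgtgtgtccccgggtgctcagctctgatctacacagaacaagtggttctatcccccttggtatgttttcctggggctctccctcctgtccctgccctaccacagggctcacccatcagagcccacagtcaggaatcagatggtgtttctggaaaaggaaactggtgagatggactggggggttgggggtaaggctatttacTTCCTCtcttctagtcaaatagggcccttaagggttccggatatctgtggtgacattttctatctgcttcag
Fcer1g, chr1:171234300-171234599, minus strand: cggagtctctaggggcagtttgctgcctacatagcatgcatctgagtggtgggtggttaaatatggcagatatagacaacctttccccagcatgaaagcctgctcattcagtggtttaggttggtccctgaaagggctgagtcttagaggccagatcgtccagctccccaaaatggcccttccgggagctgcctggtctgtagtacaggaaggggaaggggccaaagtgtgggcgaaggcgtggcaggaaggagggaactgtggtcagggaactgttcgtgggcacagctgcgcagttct
Fcgrt, chr7:45103773-45104072, minus strand: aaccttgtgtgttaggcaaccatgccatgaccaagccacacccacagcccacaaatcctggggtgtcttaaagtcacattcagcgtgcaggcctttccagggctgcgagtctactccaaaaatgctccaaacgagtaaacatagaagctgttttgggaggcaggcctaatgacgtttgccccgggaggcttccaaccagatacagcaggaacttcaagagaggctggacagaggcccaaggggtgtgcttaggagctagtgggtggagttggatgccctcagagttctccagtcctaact

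Of the 6 genes, 4 had enough counts for edgeR's default filter, and 3 of these rose in Ucp1Δ/Δ BAT, 0 fell and 1 did not pass the test (adjusted p under 0.05, adjusted over 8930 genes). Among all tested genes, 13.3% were called higher and 7.63% lower. The filter asks for 4.22 CPM in at least 4 mice, on total counts before TMM scaling, so its CPM differ slightly from those printed here. Fcgrt reached this level in every WT mouse. Fcgr3, Fcgr4 and Fcer1g passed only through their counts in Ucp1Δ/Δ mice, so the count of 3 in 4 is no support for a direction of the family. The same held for 1804 of the 8930 tested genes, which did not reach that level in all 4 WT mice. Fcgr1 and Fcgr2b were removed by that filter. When every gene with at least 1 count in any mouse was tested, 5 of the 6 were called higher and 0 lower, where 9.81% of the 16617 genes were higher and 5.31% lower. In 4 of the 6 genes, Fcgr1, Fcgr3, Fcgr4 and Fcer1g, each Ucp1Δ/Δ mouse lay above each WT mouse, a separation seen in 14.4% of the 8930 genes and in 10.9% of the 16617. In bulk tissue, more cells of a type and more RNA per cell cannot be told apart.

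**Figure D1:**
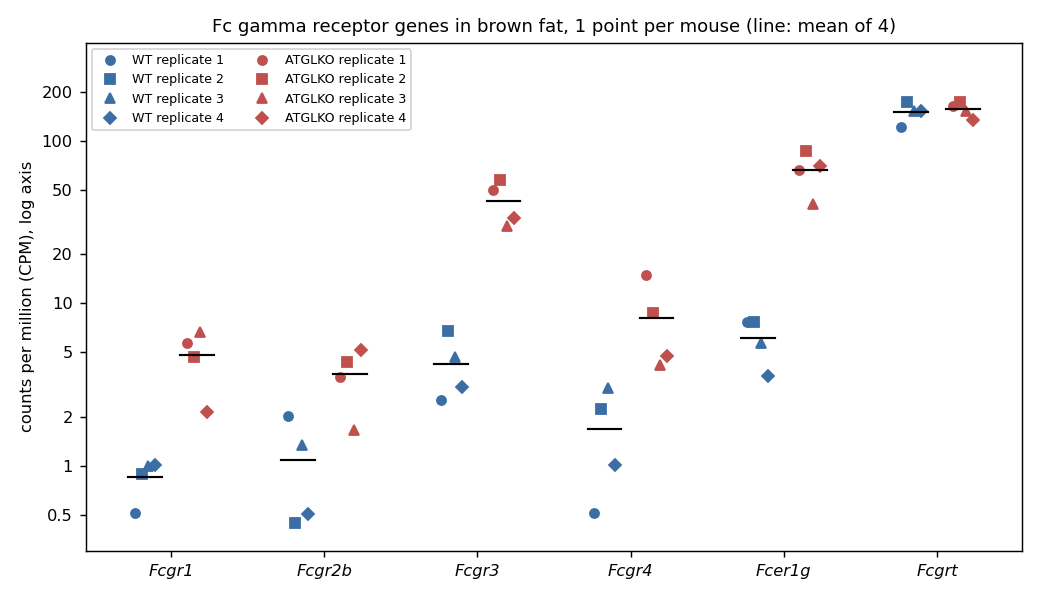
Level of each gene in CPM on a log axis, with 1 point per mouse, blue for WT, red for Ucp1Δ/Δ (labelled ATGLKO), symbols for the replicate number and a line at the mean of 4 mice. Fcgr3 and Fcer1g show the widest gaps between genotypes, Fcgr2b overlaps in 1 Ucp1Δ/Δ mouse, and the Fcgrt points of the genotypes lie on each other.

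The signalling chain showed the largest change of the 4 tested genes. Fcer1g (ENSMUSG00000058715) had 7.65, 7.62, 5.68 and 3.55 CPM in WT replicates 1 to 4, against 65.8, 86.2, 41.0 and 69.96 CPM in Ucp1Δ/Δ replicates 1 to 4. The raw counts behind these levels were 7 to 17 in WT and 98 to 277 in Ucp1Δ/Δ mice. The lowest Ucp1Δ/Δ mouse, replicate 3, was still above every WT mouse. The mean rose from 6.12 ± 1.95 to 65.7 ± 18.7 CPM (SD, n = 4 each), a 10.7-fold change (log2FC 3.42, SE 0.28, adjusted p = 8.54e-07, edgeR quasi-likelihood test).

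Fcgr3 (ENSMUSG00000059498), which encodes the low-affinity activating receptor CD16, moved by a similar amount. Its level was 2.55, 6.72, 4.68 and 3.04 CPM in WT replicates 1 to 4, against 49.9, 57.2, 29.7 and 33.5 CPM in Ucp1Δ/Δ replicates 1 to 4. Within WT the highest mouse had 2.64 times the level of the lowest, and within Ucp1Δ/Δ 1.93 times, both far below the gap between genotypes. The mean rose from 4.25 ± 1.88 to 42.6 ± 13.1 CPM (SD, n = 4 each), a 9.78-fold change (log2FC 3.29, SE 0.31, adjusted p = 3.04e-06, edgeR quasi-likelihood test).

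Fcgr4 (ENSMUSG00000059089), the activating receptor with preference for IgG2 subclasses, had a smaller log2FC and a wider spread. It had 0.51, 2.24, 3.01 and 1.01 CPM in WT replicates 1 to 4, against 14.9, 8.71, 4.18 and 4.72 CPM in Ucp1Δ/Δ replicates 1 to 4. Replicates 3 and 4 of Ucp1Δ/Δ mice were close to the highest WT mouse, with raw counts of 10 and 11 against 9. The groups did not overlap, and the mean rose from 1.69 ± 1.14 to 8.12 ± 4.93 CPM (SD, n = 4 each; log2FC 2.15, SE 0.51, adjusted p = 0.00702, edgeR quasi-likelihood test). Across all settings in which it could be fitted the adjusted p stayed between 5.36e-05 and 0.024.

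Fcgr1 (ENSMUSG00000015947), the high-affinity receptor, was near the limit of detection in WT BAT, with 1, 2, 3 and 2 counts in replicates 1 to 4. The Ucp1Δ/Δ mice had 16, 15, 16 and 5 counts, and replicate 4 was the lowest. The groups did not overlap, and the mean was 0.855 ± 0.236 CPM in WT and 4.79 ± 1.95 CPM in Ucp1Δ/Δ mice (SD, n = 4 each; two-sided exact permutation test on log2 CPM, p = 0.0286, the lowest p attainable with 4 mice a side). Summed over mice and divided by library size, the counts stood in a ratio of 5.53 (95% exact counting interval 2.61 to 13.5). In the fit over 16617 genes the log2FC was 2.37 (SE 0.58, adjusted p = 0.000937, edgeR quasi-likelihood test), and it passed the threshold in the 7 alternatives run on that fit and with each of the 8 mice left out. That fit pools the spread over genes much more strongly than the default one, with 328 against 9.33 prior degrees of freedom, and it also called 3 of the 9 skeletal muscle markers higher, where the default filter called 0.

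Fcgr2b (ENSMUSG00000026656), the only inhibitory member, gave no stable call. The WT mice had 4, 1, 4 and 1 counts and the Ucp1Δ/Δ mice 10, 14, 4 and 12 counts in replicates 1 to 4. Replicate 3 of the Ucp1Δ/Δ mice lay within the WT range. The means were 1.08 ± 0.756 CPM in WT and 3.68 ± 1.49 CPM in Ucp1Δ/Δ mice (SD, n = 4 each; two-sided exact permutation test on log2 CPM, p = 0.0571), and the summed counts stood in a ratio of 3.40 (95% exact counting interval 1.67 to 7.64). The fit over 16617 genes gave a log2FC of 1.69 (SE 0.60, adjusted p = 0.0376, edgeR quasi-likelihood test). That call was lost in 5 of 7 other settings, among them DESeq2 (adjusted p = 0.0859) and the replicate block (adjusted p = 0.0680), and with any of 6 of the 8 mice left out (adjusted p up to 0.135).

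Fcgrt (ENSMUSG00000003420) did not differ detectably between genotypes and was well counted, with 237 to 457 counts in WT and 312 to 556 in Ucp1Δ/Δ mice. The levels were 120.8, 171.6, 152.6 and 153.0 CPM in WT replicates 1 to 4, against 162.4, 173.0, 152.1 and 133.9 CPM in Ucp1Δ/Δ replicates 1 to 4. The ranges overlapped almost fully, and the means were 149.5 ± 21.1 and 155.4 ± 16.6 CPM (SD, n = 4 each). The log2FC was 0.055 (SE 0.17, adjusted p = 0.855, edgeR quasi-likelihood test), and -0.044 without WT replicate 1, the lowest WT mouse. Its partner B2m, which encodes beta-2 microglobulin and also serves all MHC class I molecules, had 909.2, 893.8, 789.4 and 901.7 CPM in WT and 1655, 1472, 1195 and 1265 CPM in Ucp1Δ/Δ mice. B2m rose with no overlap between genotypes (log2FC 0.68, SE 0.16, adjusted p = 0.00726, edgeR quasi-likelihood test). Alb, the gene of the other FcRn cargo, had at most 1 count in any mouse.

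**Figure D2:**
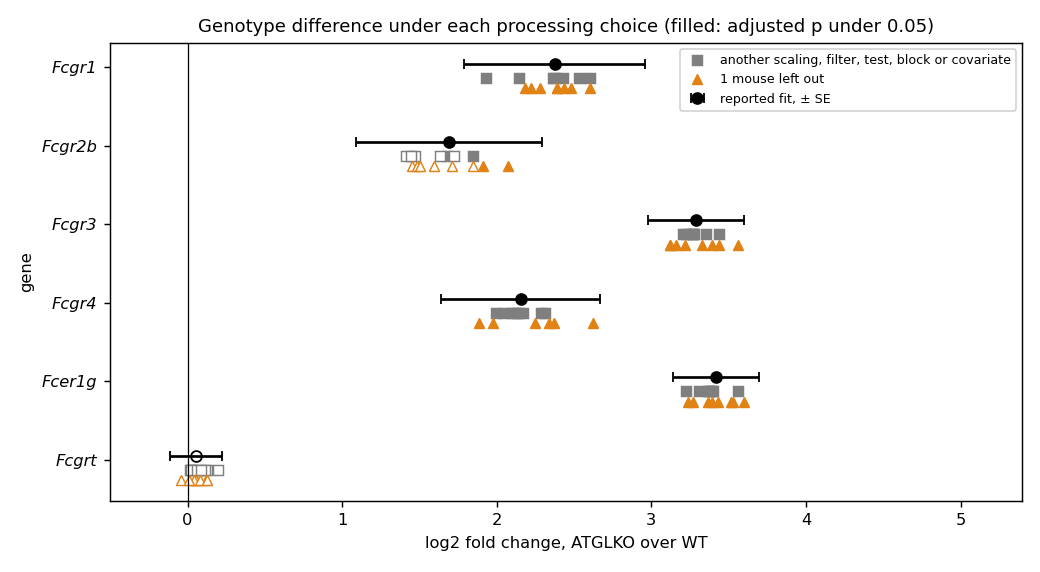
Log2FC of Ucp1Δ/Δ over WT for each gene on the horizontal axis, with the reported fit and its SE in black, other processing choices in grey and fits without 1 mouse in orange, filled where the adjusted p was under 0.05. Fcgr1, Fcgr3, Fcgr4 and Fcer1g keep filled symbols throughout, Fcgr2b holds mostly open ones, and Fcgrt stays near 0.

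Whether the genes changed by unequal amounts was asked with log2 ratios of counts within each mouse, in which library size cancels (pseudocount 0.5; 13 ratios; two-sided exact permutation tests with Benjamini-Hochberg adjustment, smallest attainable p 0.0286). No ratio passed after adjustment over the 13, where the smallest adjusted p was 0.186. Fcgr3 over Fcer1g was -0.54 ± 0.64 in WT and -0.63 ± 0.30 in Ucp1Δ/Δ mice (SD, n = 4 each), a difference of -0.090 (exact permutation p = 0.8). The receptor and its chain thus stood in a similar ratio in both genotypes within this spread, and the sign of the difference turned without replicate 2 or 4 of WT or replicate 4 of Ucp1Δ/Δ. Fcgr1 over Fcer1g and Fcgr4 over Fcer1g differed by -1.26 and -1.24 on the log2 scale, lower in Ucp1Δ/Δ mice, with overlapping groups (exact permutation p = 0.114 for each).

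The balance of activating to inhibitory receptor was examined with Fcgr2b as the denominator. Fcgr3 over Fcgr2b was 0.29, 3.37, 1.69 and 2.12 in WT replicates 1 to 4, against 3.75, 3.67, 3.99 and 2.65 in Ucp1Δ/Δ replicates 1 to 4. Replicate 4 of the Ucp1Δ/Δ mice lay below WT replicate 2, and the difference of 1.65 did not pass (exact permutation p = 0.0571, adjusted p = 0.186). Fcgr1 over Fcgr2b and Fcgr4 over Fcgr2b differed by 0.48 and 0.50 (exact permutation p = 0.6 and 0.571). These ratios rest on 1 to 4 counts of Fcgr2b in each WT mouse. With 4 mice a side, even a fully separated ratio could not pass after adjustment over 13 ratios unless most of them separated. The adjusted test therefore cannot decide whether this balance shifted.

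As shares of the counts of the 4 surface receptors, which are not corrected for transcript length, Fcgr3 made up 53.3% of 75 counts summed over WT mice (95% Wilson interval 42.2% to 64.2%) and 72.1% of 657 counts over Ucp1Δ/Δ mice (68.6% to 75.4%). In single mice its share was 45.5% to 65.2% in WT and 67.5% to 76.3% in Ucp1Δ/Δ, although the WT shares come from 11 to 30 counts each. The inhibitory Fcgr2b held 13.3% (7.41% to 22.8%) in WT and 6.09% (4.5% to 8.18%) in Ucp1Δ/Δ mice. Fcgr4 held 22.7% (14.7% to 33.3%) and 13.9% (11.4% to 16.7%), and Fcgr1 10.7% (5.50% to 19.7%) and 7.91% (6.09% to 10.2%). These intervals cover counting error only, and the difference between genotypes in the shares was not tested.

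Macrophage markers moved with the receptors. The 14 markers summed to 169.6 to 218.7 CPM in WT and to 1114 to 1813 CPM in Ucp1Δ/Δ mice, and 11 of the 13 tested were called higher and 0 lower. Of the 13, 6 passed the filter only through Ucp1Δ/Δ mice, and all 14 were tested under the filter of 1 count, with 13 called higher. Among all genes, 13.3% were called higher under the default filter and 9.81% under that of 1 count. The defining markers Adgre1 and Csf1r, the latter at 37 to 69 counts in WT and 340 to 672 in Ucp1Δ/Δ mice, had log2FC of 2.80 and 2.83. Relative to the summed macrophage markers, Fcer1g was higher by 0.61 in Ucp1Δ/Δ mice (exact permutation p = 0.0571) and Fcgr3 by 0.52 (p = 0.257), with overlapping groups by the same exact test. Fcgr1, Fcgr4 and Fcgr2b differed by -0.65 (p = 0.2), -0.63 (p = 0.314) and -1.13 (p = 0.0857) in the exact permutation test. None of these differences passed, and none could have passed alone with 4 mice a side and 13 ratios. Whether the receptors rose beyond or short of the macrophage markers is therefore not decided by this test. The part of macrophage number in the receptor levels was not tested.

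Fcgrt did not follow the macrophage markers. Its ratio to them was -0.85, -0.26, -0.15 and -0.39 in WT replicates 1 to 4, against -3.14, -3.39, -2.87 and -3.11 in Ucp1Δ/Δ replicates 1 to 4. The groups were far apart, with a difference of -2.71, which had the smallest attainable exact permutation p of 0.0286 and an adjusted p of 0.186. Over B2m the ratio of Fcgrt differed by -0.61, also without overlap (exact permutation p = 0.0286, adjusted p = 0.186). With 4 mice a side an adjusted p under 0.05 over 13 ratios could be reached only if most of the ratios separated.

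**Figure D3:**
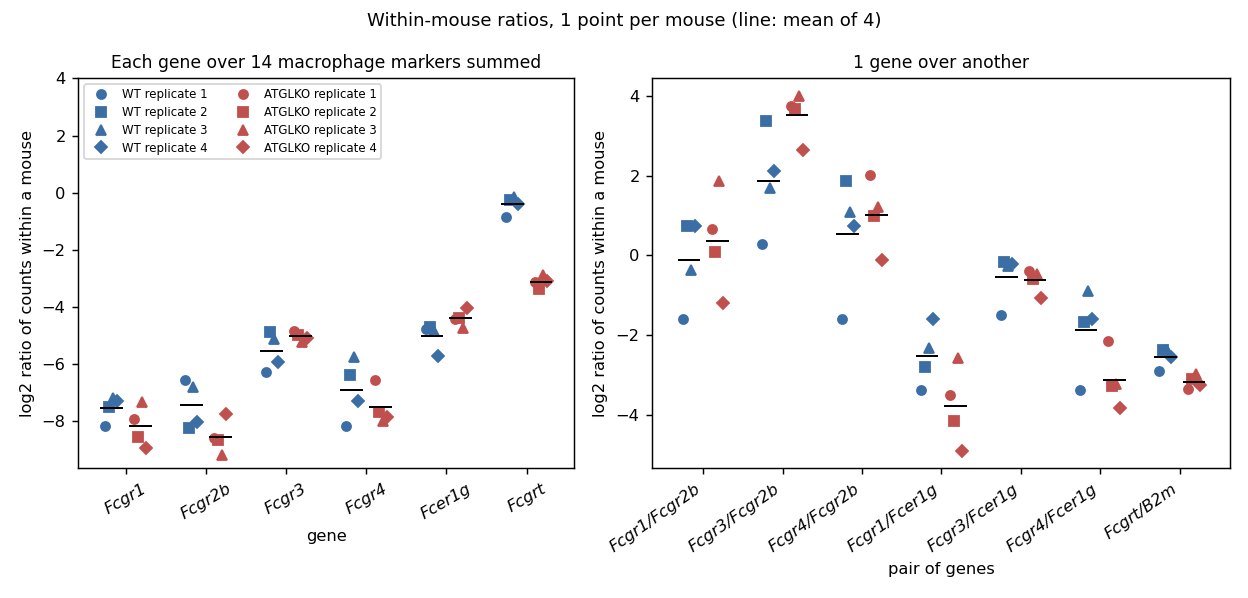
Log2 ratios of counts within a mouse, with 1 point per mouse, blue for WT, red for Ucp1Δ/Δ (labelled ATGLKO) and a line at the mean of 4 mice; the left panel divides each gene by 14 summed macrophage markers and the right panel divides 1 gene by another. Fcgrt over macrophage markers separates by 2.71 and Fcgrt over B2m by 0.61, while the groups overlap in every other ratio.

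Markers of neutrophils, mast cells, NK cells, B cells and T cells were mostly below the default filter. Of 8 neutrophil markers 0 passed the default filter, their sum was 2.03 to 10.3 CPM in WT and 2.15 to 8.84 CPM in Ucp1Δ/Δ mice, and Ly6g and Ngp had 0 counts in every mouse. Of 9 mast cell and basophil markers, which accompany the IgE receptor that also uses Fcer1g, 2 were tested and 0 called. These 2, Kit and Hdc, had negative log2FC of -1.05 and -0.65. The 9 markers summed to 10.1 to 19.3 CPM in WT and 12.0 to 18.4 CPM in Ucp1Δ/Δ mice, with overlap. Fcer1a, Ms4a2 and Mcpt8 had 0 counts in every mouse. Tpsb2, a tryptase of mast cells, was removed by the default filter, with 0, 5, 1 and 2 counts in WT and 15, 16, 7 and 9 counts in Ucp1Δ/Δ mice, and the groups did not overlap. It was called higher under the filter of 1 count (log2FC 2.20, adjusted p = 0.00387, edgeR quasi-likelihood test) and with DESeq2. The 7 NK cell markers summed to 1.34 to 7.62 CPM in WT and 8.78 to 12.0 CPM in Ucp1Δ/Δ mice, without overlap, with 0 tested under the default filter and 3 called higher under the filter of 1 count. NK cells carry the product of Fcgr3, and their part in its level was not tested. B and plasma cell markers reached at most 7.43 CPM in any mouse with Cd79a at 0 counts, and of the T cell and dendritic cell markers 1 each was tested and 0 called.

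The 6 monocyte markers summed to 7.35 to 18.7 CPM in WT and 39.3 to 55.4 CPM in Ucp1Δ/Δ mice, without overlap, and Ccr2 (log2FC 2.66) and F13a1 (log2FC 1.70) were called higher, both having passed the filter only through Ucp1Δ/Δ mice. The 8 endothelial markers, relevant for FcRn, summed to 212.4 to 243.2 CPM in WT and 254.4 to 313.4 CPM in Ucp1Δ/Δ mice, also without overlap. Of the 7 tested, Tie1 was called higher (log2FC 0.81). This call was lost without replicate 1 or 3 of WT or replicate 3 of Ucp1Δ/Δ, and 2 were called without replicate 4 of WT, with voom and with 10 counts in every mouse, and 3 with total counts only. Of 9 brown adipocyte markers, Elovl3, Cidea, Plin1 and Adipoq fell, with log2FC of -1.96, -1.16, -0.91 and -0.82. Dio2, the deiodinase that activates thyroid hormone, was called higher (log2FC 1.45), but not without replicate 1 of WT or replicate 3 of Ucp1Δ/Δ. The part of monocytes, endothelial cells and adipocytes in the receptor levels was not tested. In the skeletal muscle markers 0 of 8 were called, and with their summed level as a covariate Fcer1g, Fcgr3 and Fcgr4 kept log2FC of 3.23, 3.22 and 2.31.

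Transcripts of the ligands were examined next. Of 15 immunoglobulin and pentraxin genes, 2 passed the default filter, each through Ucp1Δ/Δ mice, and were called higher, Igkc, the kappa light chain constant gene, and Ighm, the IgM heavy chain gene. Igkc had 4, 6, 31 and 4 counts in WT replicates 1 to 4, against 305, 43, 67 and 13 counts in Ucp1Δ/Δ replicates 1 to 4. The groups overlapped, since WT replicate 3 exceeded Ucp1Δ/Δ replicate 4, and replicate 1 of the Ucp1Δ/Δ mice decided the size of the change. The log2FC was 3.04 (SE 0.76, adjusted p = 0.00965, edgeR quasi-likelihood test), and 1.74 (adjusted p = 0.0507) without Ucp1Δ/Δ replicate 1. Ighm had 2, 12, 8 and 3 counts in WT and 57, 22, 27 and 12 counts in Ucp1Δ/Δ mice, again with overlap (log2FC 1.99, SE 0.50, adjusted p = 0.00971).

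Igha, the IgA heavy chain gene, was removed by the default filter and had 4, 3, 6 and 1 counts in WT and 155, 45, 57 and 2 counts in Ucp1Δ/Δ mice, with overlap through Ucp1Δ/Δ replicate 4. Under the filter of 1 count its log2FC was 3.89 (adjusted p = 3.14e-18, edgeR quasi-likelihood test), and 5 of the 12 genes then tested were called higher, against 4 with DESeq2, 1 with voom and 0 with 10 counts in every mouse.

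Transcripts of the IgG heavy chains themselves were scarce. Ighg2c had 0 counts in every WT mouse and 43, 1, 0 and 1 counts in Ucp1Δ/Δ replicates 1 to 4, so nearly all came from 1 mouse. Ighg2b had 14, 4, 4 and 1 counts in Ucp1Δ/Δ mice and 1 count over the 4 WT mice, and Ighg1 had 0 counts in every mouse. Among the pentraxins, acute-phase proteins that Fc gamma receptors can also bind, Apcs and Crp had 0 counts in every mouse and Ptx3 at most 3. Most circulating IgG is made outside BAT, so these counts describe local transcripts only. Immunoglobulin constant genes resemble each other, and reads could have been divided among them.

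Of the kinases, adaptors and exchange factors that act downstream of activating Fc receptors, 18 of 30 were tested, 11 rose and 0 fell. Among all 8930 tested genes, 13.3% were called higher. Of the 11, Syk, Fyn, Pik3cd, Lat2, Prkcd, Rac2 and Nckap1l passed the filter only through Ucp1Δ/Δ mice, so the count of 11 is no support for a direction of the list. Under the filter of 1 count 17 of all 30 were called higher and 0 lower, where 9.81% of all genes were higher. Lat2, an adaptor of myeloid and mast cells, had 4 to 8 counts in WT and 59 to 183 in Ucp1Δ/Δ mice and rose with a log2FC of 3.66 (SE 0.35, adjusted p = 3.32e-06, edgeR quasi-likelihood test). Nckap1l, a subunit of the WAVE complex of blood cells that drives actin assembly at the phagocytic cup, had a log2FC of 3.23 (adjusted p = 2.25e-05). Syk, the kinase that binds the phosphorylated ITAM, had 3, 6, 4 and 3 counts in WT and 22, 32, 20 and 21 counts in Ucp1Δ/Δ mice (log2FC 2.29, SE 0.34, adjusted p = 0.000194). The haematopoietic GTPase Rac2 had a log2FC of 2.0 (adjusted p = 0.000255). The Src-family kinases Lyn and Fyn rose with log2FC of 1.5 and 1.33. The others called were Pik3cd, a catalytic subunit of PI3-kinase (log2FC 2.02), the adaptors Gab2 and Grb2 (1.57 and 0.66), the protein kinase C isoform Prkcd (1.38) and the Arp2/3 subunit Arpc1b (0.81).

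In 7 tested genes of that list there was no call. Rac1 had a log2FC of 0.29 and Cdc42 one of 0.34, Plcg1 one of -0.092 and the regulatory subunit Pik3r1 one of 0.27. The remaining 3 were Prkce, Shc1 and Pik3cb, with log2FC of -0.33, 0.14 and 0.18. Plcg2 and Vav1 were below the default filter, with 4 to 10 and 9 to 21 counts in Ucp1Δ/Δ mice, and were called higher under the filter of 1 count (log2FC 2.15 and 2.37, adjusted p = 0.0332 and 0.000862, edgeR quasi-likelihood test).

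Of the 11 genes that act with the inhibitory receptor or dampen the pathway, 8 were tested, 3 rose and 0 fell, where 13.3% of all tested genes were called higher. These 3 passed the filter only through Ucp1Δ/Δ mice, so their count is no support for a direction of the list. Ptprc, which encodes the phosphatase CD45 of all leukocytes, rose from 6.10 ± 2.08 to 47.6 ± 2.47 CPM (SD, n = 4 each; log2FC 3.0, SE 0.24, adjusted p = 7.62e-07). Dok2, an adaptor that restrains Ras signalling, had a log2FC of 3.10 (adjusted p = 0.000448), and Ptpn6, the phosphatase SHP-1, one of 2.14 (adjusted p = 0.00208). The 5 others were Inppl1, Ptpn11, Cbl, Cblb and Csk, with log2FC from -0.33 to 0.79. Inpp5d, the phosphatase SHIP-1 that Fcgr2b recruits, was below the default filter. It was called higher under the filter of 1 count (log2FC 1.87, adjusted p = 0.0208, edgeR quasi-likelihood test). Under that filter 6 of all 11 genes were called higher and 0 lower, where 9.81% of all genes were higher.

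Other receptors signal through the same gamma chain, and a list of 17 was drawn up as such partners, of which 15 had an identifier in the table. The pairing of each was not checked here. Some, such as Clec4a2 and Cd300lb, may act through a motif of their own or another adaptor, so the counts are not of gamma-chain receptors alone. The default filter removed 12, and the 3 left, which passed it only through Ucp1Δ/Δ mice, were called higher, so their count is no support for a direction of the list. Under the filter of 1 count, 14 were tested, 9 were called higher and 0 lower, where 9.81% of all genes were higher. Clec4a2, a C-type lectin, had 3, 10, 2 and 1 counts in WT and 49, 88, 39 and 55 counts in Ucp1Δ/Δ mice (log2FC 3.56, SE 0.43, adjusted p = 2.81e-05). Cd300ld, of the CD300 family of leukocyte receptors, had a log2FC of 3.99 (adjusted p = 8.54e-07). Cd300lb was counted no more than 1 time in any WT mouse, with 10 to 28 counts in Ucp1Δ/Δ mice (adjusted p = 0.000216), and the size of its change depends on how such counts are treated. Clec4a2 belongs to a cluster of closely similar genes whose reads may be shared.

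Of 8 genes listed as other ITAM adaptors, Tyrobp alone passed the default filter, through its counts in Ucp1Δ/Δ mice. The motif of each was not checked here, and some, such as Hcst, may lack an ITAM. Tyrobp, the DAP12 chain that serves TREM2 and related receptors, had 7, 12, 9 and 4 counts in WT and 175, 278, 83 and 93 counts in Ucp1Δ/Δ mice (log2FC 3.98, SE 0.35, adjusted p = 1.58e-06).

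The next list was drawn up as other inhibitory receptors with ITIMs, and 17 of its genes had an identifier. The motif of each was not checked here, and some, such as Clec4a1, Siglech and Siglec1, may lack one. The default filter removed 10, and 5 of the 7 left rose and 0 fell. All 5 passed it only through Ucp1Δ/Δ mice, so this count is no support for a direction either. With the filter of 1 count, 9 of 17 were called higher and 0 lower, where 9.81% of all genes were higher. Clec4a1 had 4 to 9 counts in WT and 49 to 93 in Ucp1Δ/Δ mice (log2FC 3.36, adjusted p = 1.58e-06). Pirb, a receptor for MHC class I, rose from 0.953 ± 0.606 to 13.9 ± 3.86 CPM (SD, n = 4 each; log2FC 3.77, adjusted p = 1.13e-05). Sirpa, which reads CD47 on target cells, had a log2FC of 2.52 (adjusted p = 1.56e-05) and Clec12a one of 3.81 (adjusted p = 0.000125), and Lair1, a collagen receptor, one of 3.23. Pecam1 and Ceacam1 had log2FC of 0.52 and 1.01 and were not called.

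Of 13 other Fc receptors and receptor-like genes, 0 passed the default filter. In 7 of them, 0 counts were found in every mouse: Fcer1a, Ms4a2, Fcamr, Pigr, Fcrl5, Fcrl6 and Fcrlb. Fcrls, a scavenger receptor-like member of the family, had 6, 0, 4 and 2 counts in WT and 25, 30, 21 and 5 counts in Ucp1Δ/Δ mice, with overlap through Ucp1Δ/Δ replicate 4. It was called higher under the filter of 1 count (log2FC 2.41, adjusted p = 3.22e-05, edgeR quasi-likelihood test), with DESeq2, and without any single WT mouse or Ucp1Δ/Δ replicate 4. Trim21, the cytosolic antibody receptor, had 0 to 11 counts with no call. The receptors for IgA transport, IgE and IgM were therefore not detectable or near the floor at this depth.

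**Figure D4:**
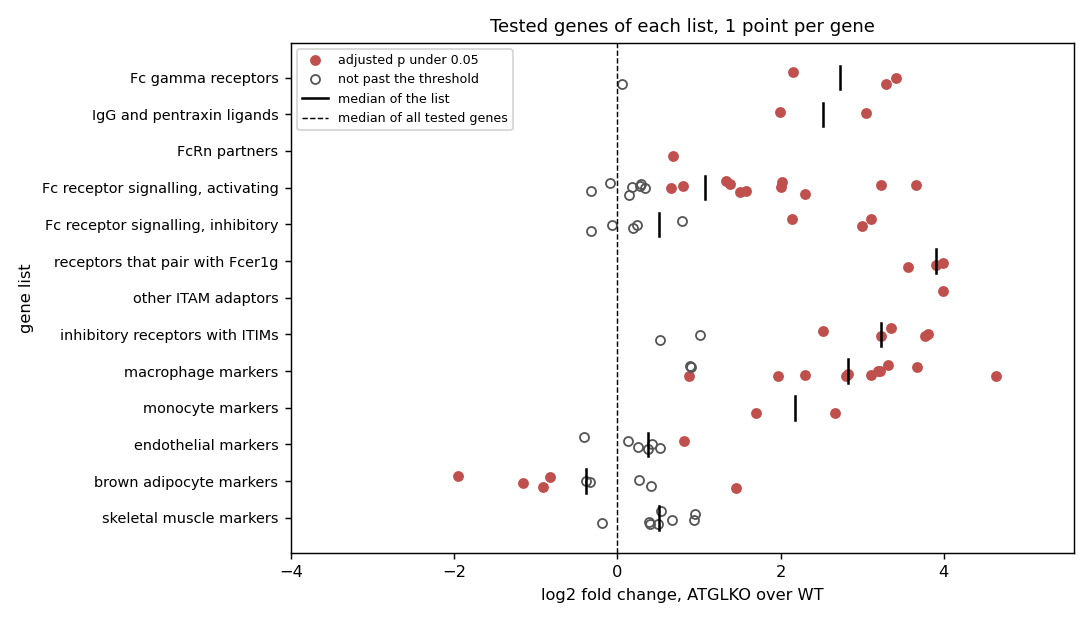
Log2FC of Ucp1Δ/Δ over WT for each tested gene, grouped by list, filled red where the adjusted p was under 0.05, with a bar at the median of the list and a dashed line at the median of all tested genes, -0.0087. The 3 tested genes listed as receptors that pair with Fcer1g lie at 3.56 to 3.99, those listed as ITIM receptors at 0.52 to 3.81 and the macrophage markers at 0.88 to 4.64. The signalling lists spread from -0.33 to 3.66, and the bars cover tested genes only.

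The profiles most like those of the tested members were sought by the root mean square (RMS) difference of centred log2 CPM over the 8 mice, among 8926 genes. Nearest to Fcgr3 were Ms4a7 (RMS 0.29), Cybb (0.31) and Cotl1 (0.32), where Cybb encodes the catalytic subunit of the phagocyte oxidase. Nearest to Fcer1g were Lilr4b (0.27), Atf3 (0.29) and Nfe2l3 (0.29), and nearest to Fcgr4 were Tgfb1 (0.36), Loxl1 (0.39) and Vat1 (0.40). Tgfb1, a growth factor, shares with Fcgr4 a high value in Ucp1Δ/Δ replicate 1, with 39 counts against 13 to 16 in the other Ucp1Δ/Δ mice. Fcgrt had much closer neighbours, Snrnp200 (0.047), Mtmr9 (0.078) and Rpl23 (0.081), none of which was called. Profiles of this kind are dominated by the difference between genotypes and by depth, and are given as a description.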

How the data were processed

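Libraries of total BAT RNA were prepared by a commercial digital mRNA-seq provider and sequenced single-end over 75 cycles, per the labels. By the study's methods the authors used bbduk for trimming, STAR for alignment to mm10 and HTseq-counts for counting. The submitters' processing notes instead name Trimmomatic, HISAT2 and DESeq2, with the builds GRCm38 and mm10. The annotation release and the treatment of reads that match several genes are not given in the sources used here. The authors deposited raw counts per Ensembl gene without normalization, used for all main results, and log2 values of scaled counts plus 1, used for 1 alternative.

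Genes were filtered with filterByExpr, scaled by TMM and compared on genotype alone with the edgeR 4.0.16 quasi-likelihood test (R 4.3.3), with Benjamini-Hochberg adjustment over all tested genes and a threshold of 0.05. SE is the absolute log2FC divided by the root of the F statistic, and log2 CPM used a prior count of 2. Symbols came from GENCODE annotation of mm10 for 30934 of 31053 genes. Every pair of mice of 1 genotype differed by more than counting noise (chi-square per degree of freedom 4.69 to 23.2). The edgeR p-values set the difference between genotypes against the spread between these mice, pooled in part over genes. In the fit at 1 count the pooling was strong (328 prior degrees of freedom), so the spread of a single gene counts for little there. Replicate numbers were not treated as pairs, since they are not stated to pair animals. The correlations of deviations ran from -0.196 to 0.304, and with no reference value they cannot decide whether mice were paired. In 10 simulations of 8930 genes, 64.6% of changes of log2 1 and 99.3% of log2 2 were recovered, and 5.67% of calls were false. The simulated spread followed the trend over genes, with none particular to a gene, and far fewer genes changed than were called here. Only genes past the default filter were simulated, and the rates are averages over them. They do not cover Fcgr1 and Fcgr2b, and need not hold for a gene of low count such as Fcgr4.

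The members and lists were chosen with earlier results of these data known. Genes named are the members, Pnpla2, B2m, up to 4 genes with the smallest adjusted p in each pathway list and, for each tested member, the 3 nearest profiles; the other genes given with values, such as Lyn, Rac1, Lair1, Ighg2c, Igha, Tpsb2, Dio2 and Fcrls, were named after their values were seen. Alternatives were DESeq2's size factors, total counts only, filters at 1 count in any mouse or 10 in every mouse, DESeq2 1.42.0, limma 3.58.1 (voom with quality weights, trend), the replicate block and each mouse left out; the skeletal muscle covariate, and the refits of Fcgr1 and Fcgr2b at 1 count, were added after seeing the data. Protein sequences were not used here.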

Additional observations from a re-analysis of the deposited data

Results flagged for a closer look

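Among 100 sets of 4 values (a gene or ratio in the mice of a genotype), 11 had an isolated mouse, against 5 that chance would give. Gaps are the distance from that mouse to its neighbour divided by the range of the set. Among the receptor genes, the log2 ratio of Fcgr3 over Fcer1g was -1.49 in WT replicate 1 against -0.27 to -0.18 in the others (gap 0.927), and that of Fcer1g over the macrophage markers was -5.73 in WT replicate 4 against -4.86 to -4.71 (gap 0.853). These rest on 5 counts of Fcgr3 and 7 of Fcer1g.

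B2m was low in WT replicate 3, with a log2 CPM of 9.63 against 9.81 to 9.83 (gap 0.879), and Igkc was high there, at 3.48 against 1.5 to 1.80 (gap 0.847). Nckap1l was high in WT replicate 2 (2.13 against 1.49 to 1.51, gap 0.971) and in Ucp1Δ/Δ replicate 2 (5.32 against 4.12 to 4.26, gap 0.884). Also high in Ucp1Δ/Δ replicate 2 were Cd300lb (3.25 against 2.32 to 2.47, gap 0.840), Sirpa (5.54 against 4.68 to 4.82, gap 0.832) and Rpl23 (8.19 against 7.84 to 7.88, gap 0.884). Cd300lb had 0 counts in WT replicate 3 and 1 in the others (gap 0.902), and Tgfb1 was high in Ucp1Δ/Δ replicate 1 (3.87 against 2.53 to 2.67, gap 0.893).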

How the results depend on the processing

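Fcer1g, Fcgr3 and Fcgr1 kept their direction and their call in every setting in which they could be fitted, and so did Fcgr4, which the default filter removed without Ucp1Δ/Δ replicate 1 or 2. With a mouse left out, the log2FC ran from 3.24 to 3.60 for Fcer1g, from 3.12 to 3.56 for Fcgr3, from 1.88 to 2.62 for Fcgr4 and from 2.18 to 2.6 for Fcgr1. Fcgr2b lost its call with DESeq2 (1.72), voom (1.41), limma trend (1.47), the replicate block (1.63) and the muscle covariate (1.45), and ran from 1.45 to 2.07 with a mouse left out, losing it without WT replicate 2 (1.45), 3 (1.85) or 4 (1.49) or Ucp1Δ/Δ replicate 1 (1.71), 2 (1.60) or 4 (1.5). Fcgrt ran from -0.044 to 0.12 with a mouse left out and from 0.018 to 0.20 in the other settings, uncalled throughout. It reversed only without WT replicate 1, as did Snrnp200 (-0.046 to 0.11 with a mouse left out) and Rpl23 (-0.028 to 0.14). The cause was not tested.

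Members called numbered 5 under the filter of 1 count in any mouse and 0 under that of 10 in every mouse, which left only Fcgrt, and it ran from 2 to 4 with a mouse left out. Of all pathway list genes 26 were higher, against 50 and 7 with those filters, 41 with DESeq2 and 23 to 34 with a mouse left out. Over all genes, 746 were higher and 449 lower with at least 10 counts in every mouse, 404 were lower with total counts only, which shifted the median log2FC to 0.13, and 400 without Ucp1Δ/Δ replicate 2 (851 at most). With a mouse left out, Fcgr1 over Fcgr2b ran from -0.027 to 0.99 (-0.011 without WT replicate 1), Fcgr4 over Fcgr2b from -0.21 to 0.95, and Fcgr3 over Fcer1g from -0.41 to 0.054 (0.031 without WT replicate 2, 0.020 without WT replicate 4). Igkc lost its call with voom (2.19) and without Ucp1Δ/Δ replicate 1 (1.74).

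The replicate numbers are not stated to pair animals, and the correlations of deviations were -0.0873, -0.196, 0.304 and 0.241. The replicate block gave 1138 higher and 581 lower genes, 3 members and 26 list genes. Fcgr1 and Fcgr2b rest on 1 to 4 counts in each WT mouse, which limits every ratio made with them.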
